A study of Mus musculus with 23 samples.

Results

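The 9 genes described here, Neurog2, Atoh7, Sox2, Rax, Six3, Six6, Lhx2, Fgf15 and Sfrp2, are transcription factors and secreted factors of retinal progenitor cells and of the neurogenic cells that leave the cycle. They were taken by symbol from the reference chromosomes of the deposited gene table, and all 9 of the 9 names were found among its 52143 genes. In build GRCm38 they lie at chr3:127633135-127635631 (Neurog2), chr10:63099651-63101279 (Atoh7), chr3:34650405-34652461 (Sox2), chr18:65934639-65939089 (Rax), chr17:85613608-85629302 (Six3), chr12:72939892-72944899 (Six6), chr2:38339281-38369733 (Lhx2), chr7:144896531-144900953 (Fgf15) and chr3:83766321-83774316 (Sfrp2), Rax on the minus strand and the others on the plus strand. In the developing retina, dividing progenitors first express the eye-field and optic-cup factors Rax, Six3, Six6, Lhx2 and Sox2. A progenitor that is about to produce neurons transiently expresses proneural basic helix-loop-helix factors such as Neurog2 and Atoh7, the second of which is required for retinal ganglion cells. Fgf15, a secreted fibroblast growth factor, and Sfrp2, a secreted modulator of Wnt signalling, are known as markers of early retinal progenitors in the mouse.

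The RNA came from neural retina dissected out of mouse retinal organoids, with several organoids pooled in a sample, and was sequenced as directional poly(A) libraries. All organoids were grown from 1 wild-type Nrl-GFP induced pluripotent stem cell clone, made from embryonic fibroblasts with doxycycline-inducible lentiviral vectors for Oct3/4, Sox2, Klf4 and c-Myc. Every group compared had received 9-cis retinal, taurine and insulin-like growth factor 1 in its culture medium. From day 10 the medium held docosahexaenoic acid (DHA) bound to bovine serum albumin (BSA), linoleic acid (LA) bound to BSA, or BSA.

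There were 23 libraries in 9 groups. At day 32 with FGF1 there were 2 libraries for DHA, 3 for LA and 3 for BSA, and FGF1 was present at 200 ng/ml from day 26. At day 32 without FGF1 there were 3 libraries for each of DHA, LA and BSA, and at day 26 there were 2 libraries for each. Non-essential amino acids, B27 without vitamin A and fetal bovine serum were added to all cultures from day 26, so a comparison of the days holds age, this change of medium and FGF1 together. The labels call the samples biological replicates but do not say whether they are separate differentiations, so p-values measure the spread between these samples.

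The libraries fell into 12 deeper ones, with 16029580 to 20510550 counts, and 11 shallower ones, with 10405663 to 11888224 counts. The deeper libraries were replicates 1 and 2 of the day 32 groups with FGF1 and all of day 26. The shallower libraries were replicate 3 of LA and of BSA with FGF1 and all of day 32 without FGF1. Of the shallower libraries, 5 are absent from the normalized values that the authors deposited. In the main fits, levels were therefore compared only within the deeper or within the shallower libraries, and day 32 without FGF1 was not tested against day 26. Values from both depth ranges are set side by side, with no test, only where the depth ranges themselves are described.

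The neural retina label was checked against marker lists. The summed level of 12 rod genes was 8655 to 14413 CPM (counts scaled to library size) at day 32 with FGF1, against 4032 to 6312 CPM at day 26, both in the deeper libraries. The summed level of 10 pigment epithelium genes was 18.9 to 334 CPM and 26.3 to 420 CPM in the same 2 groups. Rpe65, a defining gene of that tissue, had no count at day 26. Other genes of the list, Tyr, Tyrp1, Pmel, Dct, Mitf, Mlana, Slc45a2 and Ttr, passed the filter on low counts. Pigment cells were therefore not shown to be absent. The 10 mesenchyme genes summed to 42.3 to 513 CPM at day 32 with FGF1 and 35.7 to 125 CPM at day 26.

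Promoter sequences are shown for 3 of the genes, Atoh7 as the proneural gene with the largest decrease and Six3 and Six6 as related homeobox genes, chosen with their values known. They are RefSeq sequences of build GRCm38.p6, 300 bases around the transcription start on the plus strand, written 5′ to 3′.
Atoh7, chr10:63099535-63099834: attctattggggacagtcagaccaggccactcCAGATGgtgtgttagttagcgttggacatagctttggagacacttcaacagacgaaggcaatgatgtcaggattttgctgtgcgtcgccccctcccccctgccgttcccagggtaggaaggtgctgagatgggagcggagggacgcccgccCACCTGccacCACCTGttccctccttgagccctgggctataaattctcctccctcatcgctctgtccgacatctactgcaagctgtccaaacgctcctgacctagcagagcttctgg
Six3, chr17:85620584-85620883: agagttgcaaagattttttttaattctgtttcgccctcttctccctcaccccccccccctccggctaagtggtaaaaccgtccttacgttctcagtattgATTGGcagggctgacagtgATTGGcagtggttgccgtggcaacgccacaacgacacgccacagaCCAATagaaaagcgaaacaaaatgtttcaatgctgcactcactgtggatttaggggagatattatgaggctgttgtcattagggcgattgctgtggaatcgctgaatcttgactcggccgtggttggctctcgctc
Six6, chr12:72939632-72939931: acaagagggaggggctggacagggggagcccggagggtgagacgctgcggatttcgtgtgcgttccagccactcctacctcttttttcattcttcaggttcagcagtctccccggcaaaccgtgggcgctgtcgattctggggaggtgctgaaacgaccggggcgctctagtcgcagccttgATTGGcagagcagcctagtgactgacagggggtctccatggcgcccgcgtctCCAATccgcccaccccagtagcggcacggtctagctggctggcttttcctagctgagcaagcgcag

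Capitals mark the E-box CANNTG in Atoh7, the motif that basic helix-loop-helix proteins bind, and CCAAT or its reverse complement ATTGG in Six3 and Six6. Atoh7 held 3 E-boxes, and 72.3% of 32851 mouse promoters of the same length held at least 1. Six3 held 3 and Six6 held 2 CCAAT motifs, which 37.4% of those promoters held at least once. The Six3 and Six6 windows shared an 11-letter run, TTGATTGGCAG, which was present in 9 of the 32851 promoters. The CCAAT motif and the run were chosen after the sequences were seen, and a match describes these letters and not a bound site. The Atoh7 window also held 1 CCAAT motif, left in lower case. The Neurog2 window, chr3:127632886-127633185, held neither motif.

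At day 32 with FGF1, all 9 genes were lower than at day 26 in the deeper libraries. Fgf15 fell the most, 11.5-fold, and was followed by Atoh7 at 4.13-fold and Neurog2 at 2.59-fold. Sfrp2 fell 2.11-fold and Rax 1.99-fold. Six6, Lhx2, Six3 and Sox2 fell by 1.58-, 1.46-, 1.42- and 1.40-fold. Of the 20111 genes tested, 28.7% changed in this comparison and 14.1% were lower (edgeR quasi-likelihood test, mean over DHA, LA and BSA, adjusted p under 0.05), beside which the count of 9 of 9 is to be read. The median log2 difference was −0.99 over the 9 genes and 0.0027 over all genes tested. In these bulk samples, fewer cells that express a gene and less RNA of it per cell cannot be told apart.

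Fgf15 had a lowest value of 0.33, a median of 2.80 and a highest value of 5.03 CPM over the 6 libraries at day 32 with FGF1, against a lowest value of 18.9, a median of 23.0 and a highest value of 44.7 CPM over the 6 libraries at day 26. The highest library at day 32 with FGF1, LA replicate 1, lay well below the lowest at day 26, BSA replicate 1. Fgf15 differed by −3.53 on the log2 scale (SE 0.416, edgeR adjusted p 1.01e-04). Without DHA replicate 2 with FGF1 it was −4.23, and without BSA replicate 1 with FGF1 it was −4.09.

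Neurog2 ranged from 15.4 through a median of 20.97 to 40.3 CPM at day 32 with FGF1, against 48.1, 58.3 and 75.4 CPM at day 26. No library of the 2 groups overlapped. Of the day 32 libraries with FGF1, the replicate 1 libraries of DHA, LA and BSA had 40.3, 25.8 and 27.8 CPM, and the replicate 2 libraries had 15.4, 15.6 and 16.1 CPM. Over the media, Neurog2 had a log2 difference of −1.37 (SE 0.233, edgeR adjusted p 0.00117).

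Atoh7 had 0.29 CPM in the lowest, 0.40 CPM in the median and 1.47 CPM in the highest library at day 32 with FGF1, against 1.39, 2.08 and 3.46 CPM at day 26. The groups overlapped in 1 library, BSA replicate 1 with FGF1, whose deposited gene value of 25 counts stood beside a sum of 10 counts over the deposited Atoh7 transcripts. For Atoh7 the log2 difference was −2.05 (SE 0.394, edgeR adjusted p 0.00255), and −2.56 without that library.

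Sfrp2 had 4.15, 6.12 and 8.61 CPM in the lowest, median and highest library at day 32 with FGF1, against 11.4, 12.6 and 19.1 CPM at day 26. Its groups did not overlap, and the log2 difference was −1.08 (SE 0.216, edgeR adjusted p 0.00324).

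Rax, a homeobox factor that initiates the eye field and is later kept in photoreceptors and Müller glia, had 34.3, 48.3 and 88.8 CPM in the lowest, median and highest library at day 32 with FGF1, against 89.0, 107 and 121 CPM at day 26. Its groups touched without overlapping, since DHA replicate 1 had 88.8 CPM with FGF1 and 89.0 CPM at day 26. As for Neurog2, the 3 replicate 1 libraries at day 32 with FGF1 (88.8 CPM for DHA, 56.8 for LA, 60.9 for BSA) were above the 3 replicate 2 libraries (39.8 CPM for DHA, 34.3 for LA, 38.4 for BSA). For Rax the log2 difference was −0.99 (SE 0.206, edgeR adjusted p 0.00396).

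**Figure D1:**
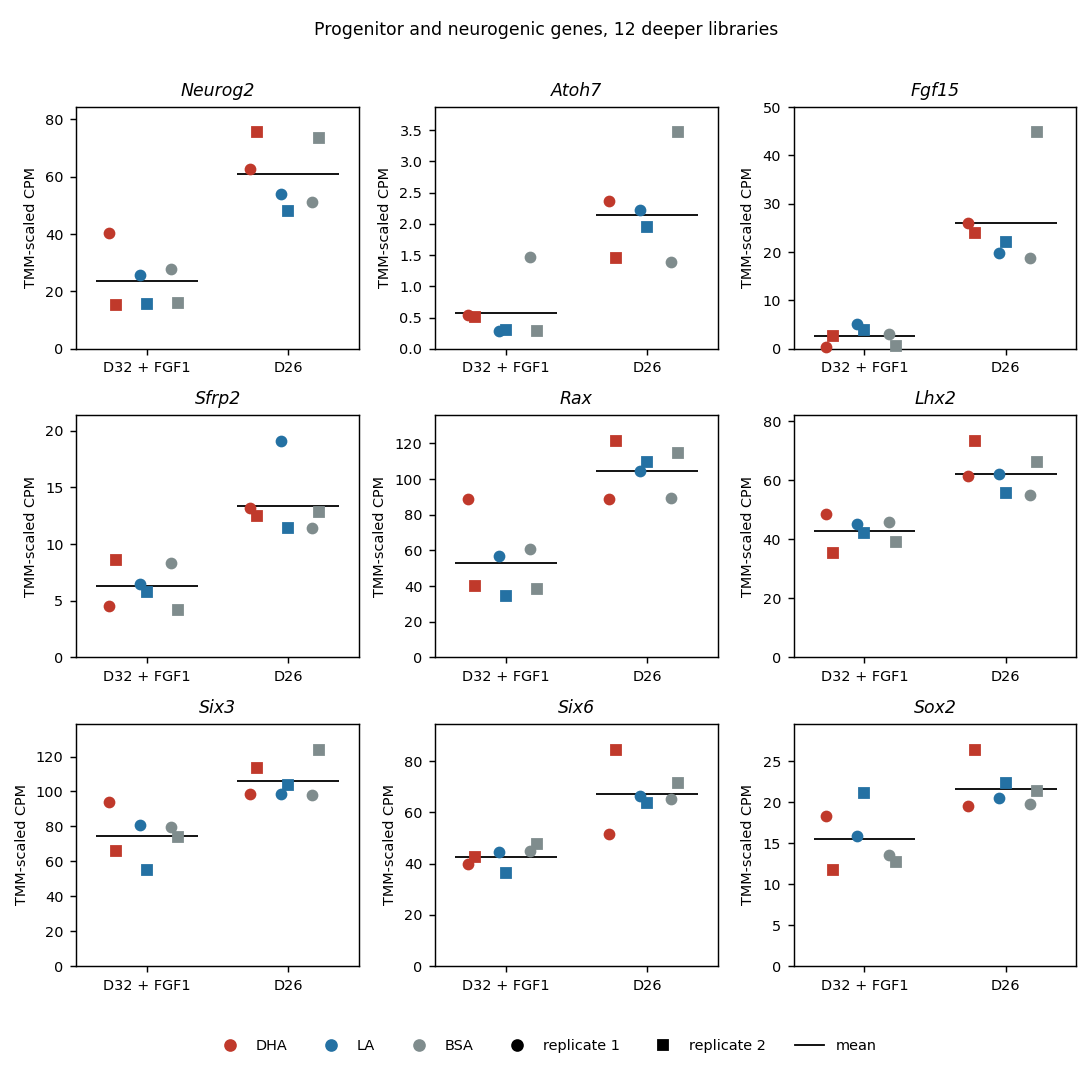
Level of each of the 9 genes in the 12 deeper libraries (vertical axes: CPM scaled by the trimmed mean of M values, TMM; columns: day 32 with FGF1 on the left, day 26 on the right; colours: medium; marker shapes: replicate; black lines: mean of 6 libraries). Fgf15 is at most 5.03 CPM at day 32 with FGF1 and at least 18.9 CPM at day 26, and the groups overlap for Atoh7 and Sox2.

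Lhx2, a LIM homeobox factor needed for the optic cup and for Müller glia, ranged from 35.3 to 48.5 CPM (median 43.7) at day 32 with FGF1, against 55.2 to 73.3 CPM (median 61.7) at day 26. Its log2 difference was −0.54 (SE 0.108, edgeR adjusted p 0.00303). Six6, a homeobox factor of the optic cup, ranged from 36.2 to 47.8 CPM (median 43.6) at day 32 with FGF1, against 51.6 to 84.4 CPM (median 65.8) at day 26, a log2 difference of −0.66 (SE 0.120, edgeR adjusted p 0.00182). Six3, the related factor, ranged from 54.8 to 93.8 CPM (median 76.7), against 97.7 to 124 CPM (median 101) at day 26, a log2 difference of −0.51 (SE 0.125, edgeR adjusted p 0.0103). In all 3 genes the groups did not overlap, although the differences were the smaller ones of the 9.

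Sox2, a progenitor factor that is kept in Müller glia and in a class of amacrine cells, had 11.8, 14.7 and 21.1 CPM in the lowest, median and highest library at day 32 with FGF1, against 19.5, 20.96 and 26.4 CPM at day 26. LA replicate 2 with FGF1 lay within the day 26 range. For Sox2 the log2 difference was −0.49 (SE 0.139, edgeR adjusted p 0.0209), and adjusted p was 0.0576 to 0.0684 without any 1 of 5 libraries: BSA replicate 2 or DHA replicate 2 of day 26, or LA replicate 1, BSA replicate 2 or DHA replicate 2 of day 32 with FGF1. Over all alternatives its adjusted p ranged from 0.00535 to 0.249. Reads from the Sox2 vector cannot be told apart from those of the gene in these counts. Of the other vector genes, picked from the labels, Pou5f1 (Oct3/4) fell to 0.25 to 0.71 CPM at day 32 with FGF1, against 1.47 to 2.59 CPM at day 26, and Klf4 and Myc had log2 differences of 0.17 and 0.16 that did not pass the test. Their part in the Sox2 result was not tested.

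Every library at day 32 with FGF1 was below every library at day 26 for 7 of the 9 genes, the exceptions being Atoh7 and Sox2, beside 7.69% of all genes tested; 8.53% had every library higher. The edgeR fits with another scaling, DESeq2, limma voom, the authors' normalized values and sums over transcripts each called all 9 genes lower. A fit of all 23 libraries, in which the shallower FGF1 libraries formed groups of their own, called 8, without Sox2.

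The decrease was also read within each medium, with 2 libraries against 2. In DHA, Fgf15, Six6 and Lhx2 passed the test as lower, with log2 differences of −4.13, −0.73 and −0.68, beside 4.28% of all genes lower and 6.08% higher (10.4% called). In LA, Atoh7 alone of the 9 passed, at −2.80, beside 1.81% of all genes lower and 3.34% higher (5.16% called). In BSA, Fgf15 and Neurog2 passed, at −4.21 and −1.51, beside 2.58% of all genes lower and 4.25% higher (6.83% called). Passing in 1 medium and not in another does not show that the media differ. All 27 differences, 9 genes in 3 media, were below 0, but with so few libraries the 95% intervals were wide, and those of Rax and Six3 in DHA and of Sox2 in LA included 0. The difference between the DHA and the LA decrease was tested directly: none of the 9 genes passed, with 0% of all genes called by edgeR or limma voom, 1272 genes at an unadjusted p under 0.05 and 67 called by DESeq2. For Fgf15 this difference was −1.90 on the log2 scale, with a 95% interval from −4.04 to 0.25.

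**Figure D2:**
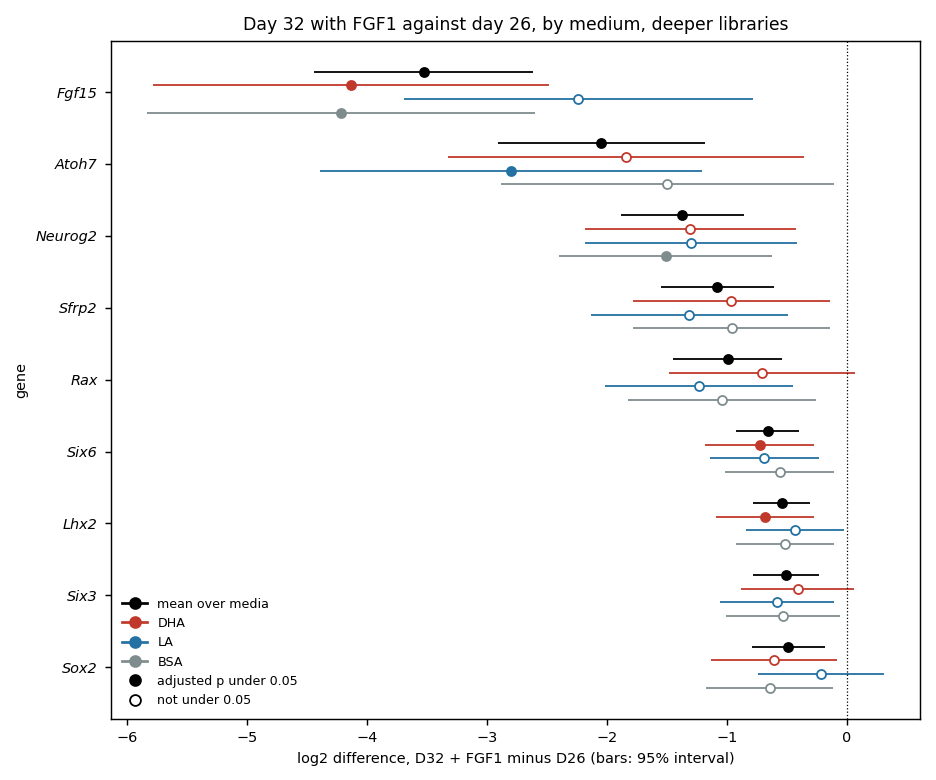
Log2 difference of each gene between day 32 with FGF1 and day 26 in the deeper libraries (horizontal axis), as the mean over media (black) and within DHA, LA and BSA, with 95% intervals; filled circles have an adjusted p under 0.05. The black circles run from −3.53 for Fgf15 to −0.49 for Sox2, and every circle is left of 0.

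Compared per kilobase of transcript, the order of the genes also changed. At day 26 the mean levels in CPM per kilobase (± SD, n = 6) were 62.7 ± 7.9 for Rax, 36.1 ± 3.7 for Six3, 35.1 ± 4.8 for Lhx2, 27.3 ± 5.3 for Neurog2, 16.7 ± 2.7 for Six6, 14.4 ± 5.3 for Fgf15, 10.5 ± 1.2 for Sox2, 7.15 ± 1.6 for Sfrp2 and 1.34 ± 0.48 for Atoh7. Neighbours in this order overlapped over the libraries, except Rax with Six3, Neurog2 with Six6 and Sfrp2 with Atoh7. In the day 32 libraries with FGF1, Rax (31.8 ± 12.2), Six3 (25.4 ± 4.9) and Lhx2 (23.4 ± 2.9) were again highest. Six6 (10.6 ± 1.0), Neurog2 (10.6 ± 4.4) and Sox2 (7.57 ± 1.7) came next. Fgf15, sixth at day 26, had 1.42 ± 1.0 CPM per kilobase and stood below Sfrp2 at 3.43 ± 1.3, with Atoh7 at 0.57 ± 0.68 lowest. Neighbours overlapped there too, except Lhx2 with Six6 and Sox2 with Sfrp2. These levels divide the deposited gene values by transcript length. For Lhx2 the gene values exceeded the sums over its transcripts in the deeper libraries, with 912.0 against 707.0 counts in BSA replicate 1 of day 26. Its place in the order rests on the gene values, and the order was not computed from transcript sums.

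Other neurogenic genes fell with Neurog2 and Atoh7. Of 21 such genes, 16 were lower and 1 was higher at day 32 with FGF1, with a median log2 difference of −1.19, beside 14.1% of all genes lower and 14.6% higher. Foxn4, which biases progenitors to amacrine and horizontal cells, had 1.98 to 5.76 CPM, against 23.3 to 42.2 CPM at day 26. Hes6, a helix-loop-helix factor of differentiating neurons, had 38.7 to 59.96 CPM against 149.9 to 203 CPM, and Prdm1, a factor of photoreceptor precursors, had 48.0 to 68.9 CPM against 183 to 362 CPM. Their ranges did not overlap.

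Other multipotent progenitor genes moved in both directions. Of 20, 9 were lower and 4 higher, with a median of −0.37. The Notch effector Hes5 had 1.46 to 5.45 CPM at day 32 with FGF1, against 29.4 to 51.1 CPM at day 26, and the cyclin Ccnd1 had 76.3 to 134 CPM against 160 to 248 CPM.

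Of 14 proliferation genes, 11 were lower and none higher, with a median of −0.66, and Top2a, an enzyme of DNA replication and mitosis, had 29.95 to 59.3 CPM against 86.5 to 149 CPM at day 26. Genes of late progenitors and Müller glia were mostly higher: 7 of 10 late progenitor genes were higher and 1 lower, and 10 of 14 Müller glia genes were higher and none lower. The 2 lists share genes, among them the glutamate transporter gene Slc1a3 (235 to 569 CPM against 48.5 to 87.4 CPM) and the retinoid-binding protein gene Rlbp1 (305 to 400 CPM against 43.9 to 131 CPM). Of 12 rod genes, 10 were higher and none lower.

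Lists of amacrine and ganglion cells were also counted. Of 14 amacrine cell genes, 6 were lower, Sox2 itself among them, and 1 higher, with a median of −0.36, and of 14 ganglion cell genes, 3 were lower and 2 higher, with a median of −0.32. Among genes that FGF signalling is known to induce, 10 of 14 were higher and 1 lower, with a median of 1.27. The feedback inhibitor Spry4 had 19.5 to 24.3 CPM at day 32 with FGF1, against 6.31 to 8.53 CPM at day 26. Of lists for other tissues, 3 of the 8 pigment epithelium genes tested were lower and none higher, 1 of 10 mesenchyme genes was higher and none lower, 1 of 10 ciliary margin genes was higher and 1 lower, and none of 8 forebrain genes passed. Whether the shares of these cell types or the response to FGF1 contribute to the decrease of the 9 genes was not tested.

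**Figure D3:**
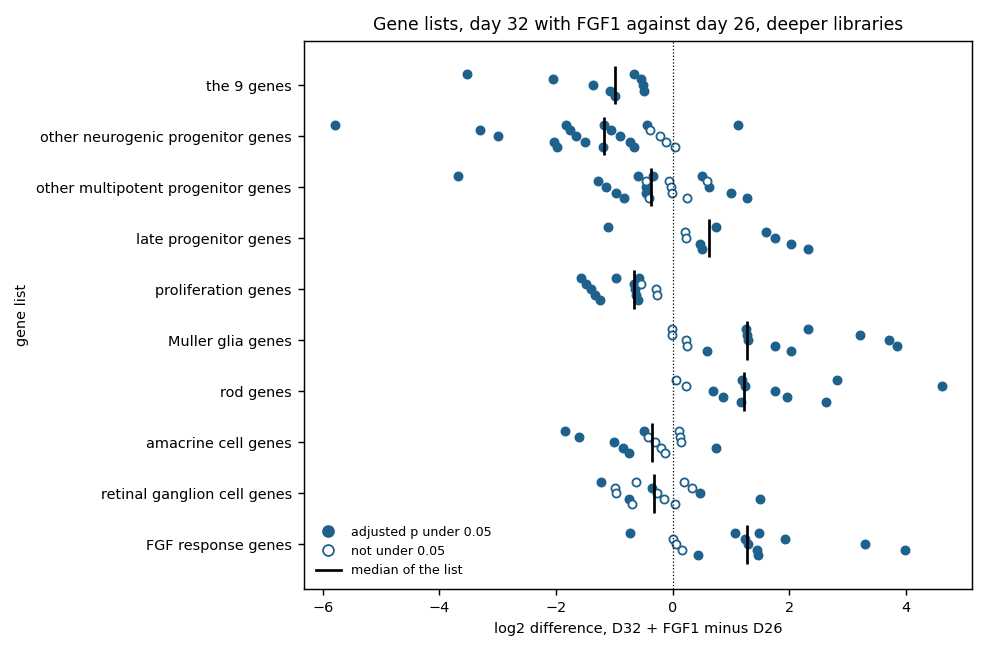
Log2 difference between day 32 with FGF1 and day 26 in the deeper libraries (horizontal axis) for each gene of 10 lists (rows), with filled circles for an adjusted p under 0.05 and black lines for list medians. The medians of the 9 genes (−0.99) and of other neurogenic genes (−1.19) lie left of 0, and those of Müller glia (1.28) and rod genes (1.21) lie right of it.

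The annotation places other genes over parts of several members, and those at the higher levels are given here. Sox2ot, a long non-coding RNA that encloses Sox2 on the same strand, had 6.65 to 15.4 CPM at day 32 with FGF1, against 29.1 to 51.5 CPM at day 26, a log2 difference of −1.76 (SE 0.194). Six3os1, which overlaps Six3 by 4791 bases on the other strand, had 238 to 262 CPM against 285 to 299 CPM and fell by 0.23 on the log2 scale (edgeR adjusted p 0.0417). 4930447C04Rik, which overlaps Six6 by 883 bases on the other strand, fell by 0.48 (edgeR adjusted p 0.0255), while Raxos1, on the other strand of Rax with an overlap of 1552 bases, had a difference of −0.21 that did not pass the test (edgeR adjusted p 0.181). The libraries kept the strand, but whether the quantification used it is not given in the sources used here, so the share of overlapping transcripts in the counts of each gene was not tested.

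The question whether FGF1 itself moves these genes can be put only to the shallower libraries, where 2 libraries with FGF1 (replicate 3 of LA and of BSA) stand against 3 LA and 3 BSA libraries without it. None of the 8 genes tested passed the test, and 0% of the 19484 genes tested were called by edgeR or limma voom, with 931 genes at an unadjusted p under 0.05 and 16 called by DESeq2. Atoh7 did not pass the filter on low counts, with 0.59 and 0.09 CPM with FGF1 and 0 to 0.76 CPM in the 9 libraries without it. The median half-width of the 95% intervals over all genes was 0.96 on the log2 scale, and the threshold adjusted over all genes requires larger differences than that, so differences of this size and well above it could be missed.

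Neurog2 was the 1 gene of the 8 whose libraries with FGF1 were all above those without it, at 43.1 CPM in LA and 52.1 CPM in BSA, against a lowest value of 21.7, a median of 31.5 and a highest value of 39.8 CPM in the 9 libraries without FGF1. Of all genes tested, 3.72% were arranged this way and 3.48% the opposite way. The log2 difference was 0.68, with a 95% interval from 0.09 to 1.27 and an edgeR adjusted p of 0.867. Both FGF1 libraries are among the 5 that are absent from the authors' normalized values, and a fit of those 5 libraries gave 0.43. Over all alternatives the Neurog2 difference ranged from −0.25 to 0.86, below 0 only in the fit of all 23 libraries without the library set, and its adjusted p ranged from 0.478 to 1. The 10 mesenchyme genes summed to 255 to 311 CPM with FGF1, against 37.5 to 162 CPM without it, and the 12 rod genes to 6226 to 6311 CPM, against 6848 to 10042 CPM; their part in the Neurog2 values was not tested.

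Rax had 3.17 CPM in LA and 6.01 CPM in BSA with FGF1, against 5.26, 7.12 and 17.1 CPM in the lowest, median and highest library without it. The log2 difference was −0.96 with a 95% interval from −2.13 to 0.21. Six3 had 44.7 and 52.3 CPM with FGF1, against 51.0 to 91.5 CPM without it, a difference of −0.43 with an interval from −0.98 to 0.12. The log2 differences of the other genes were 0.46 for Sox2, 0.47 for Fgf15, 0.38 for Six6, −0.11 for Sfrp2 and −0.09 for Lhx2, each with an interval that included 0.

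Among the libraries without FGF1, 2 stood high for several members. Replicate 3 of DHA and of LA had 59.7 and 56.3 CPM of Sox2, and the other 7 libraries had 15.2 to 38.1 CPM. The same 2 libraries had the highest Six6 levels, 87.8 and 85.5 CPM, against 37.6 to 75.6 CPM in the other 7, and the highest Six3 levels, 85.5 and 91.5 CPM. Rax was not high there, with gene values of 56.1 counts in DHA and 66.6 in LA, against 63.7 to 219.5 counts in the other 7. Both libraries are among those with normalized values from the authors.

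**Figure D4:**
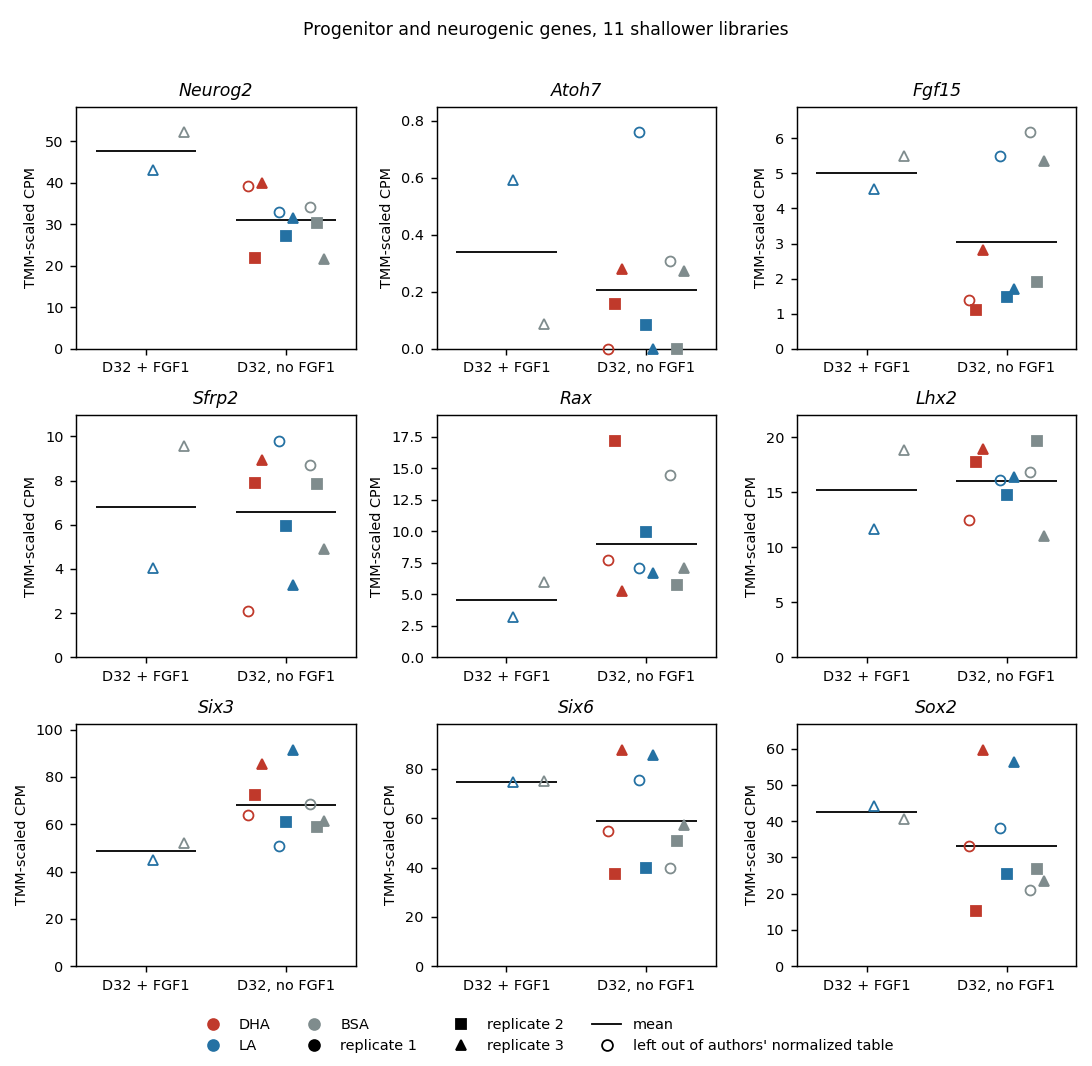
Level of each gene in the 11 shallower libraries, all of day 32 (vertical axes: TMM-scaled CPM; columns: with FGF1 on the left, without FGF1 on the right; colours: medium; marker shapes: replicate; open markers: libraries with no normalized value from the authors; black lines: means). Neurog2 with FGF1 is at 43.1 and 52.1 CPM, above the highest library without FGF1 at 39.8 CPM.

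A fit of all 23 libraries that ignored the depth ranges turned the direction of the FGF1 difference for 6 of the 8 genes, and 2 of these, Rax and Lhx2, passed the test. Rax then had a log2 difference of 1.92 (edgeR adjusted p 0.00502) and Lhx2 of 0.92 (edgeR adjusted p 0.00490), against −0.96 and −0.09 within the shallower libraries, and 9563 genes were called. Neurog2 had −0.25, Sox2 −0.80, Six6 −0.43 and Fgf15 −0.28 in that fit, with edgeR adjusted p from 0.0614 for Sox2 to 0.645 for Fgf15. That fit took the mean over DHA, LA and BSA. Another fit of all 23 libraries gave the shallower FGF1 libraries group means of their own. Its FGF1 difference was taken over LA and BSA only, and again within the shallower libraries. The differences of Rax and Lhx2 were then −0.95 and −0.07. Over all alternatives the adjusted p ranged from 0.00502 to 1 for Rax and from 0.00490 to 1 for Lhx2.

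The groups LA with FGF1 and BSA with FGF1 at day 32 were sequenced in both depth ranges, which allows the same groups to be read side by side, here as CPM of each library's own total and with no test. Rax had 2.90 and 5.81 CPM in the 2 shallower libraries and 35.8 to 62.7 CPM in the 4 deeper ones, and Lhx2 had 10.7 and 18.2 CPM against 39.5 to 47.3 CPM. The deposited Lhx2 gene values were above the sums over its transcripts in these deeper libraries and below them in the shallower ones. BSA replicate 1 had 781.6 against 576.0 counts, and BSA replicate 3 had 213.1 against 258.0. The size of the Lhx2 gap therefore depends on which counts are used. Sox2 and Neurog2 were higher in the shallower libraries, with 39.2 and 40.6 CPM of Sox2 in the shallower libraries against 12.9 to 22.04 CPM in the deeper ones, and 39.5 and 50.3 CPM of Neurog2 against 16.3 to 28.7 CPM. Six6 was higher there too, at 68.4 and 72.5 CPM against 37.8 to 48.4 CPM.

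The GC content of the main transcript was highest in the genes with the lowest gaps, 63.1% in Rax and 58.5% in Lhx2. It did not order the other genes by their gaps. It was 55.9% in Neurog2, 55.2% in Atoh7, 53.1% in Six3, 52.9% in Sfrp2, 50.8% in Fgf15, 50.5% in Sox2 and 43.6% in Six6. In log2(CPM + 1), shallower minus deeper, Six3 was at −0.67, Atoh7 at −0.24, Sfrp2 at −0.05, Fgf15 at 0.61 and Six6 at 0.66. Over all genes with a mean of at least 1 CPM, the median shallower minus deeper difference in log2(CPM + 1) was −2.77 for the 625 genes with a GC content of 60% or more, −2.08 for the 2991 genes from 55% to 60%, −0.46 for the 8591 genes from 45% to 55% and 0.60 for the 4369 genes under 45%. Rax, at −3.23, and Lhx2, at −1.59, lay between the 10th and 90th percentile of their classes. Neurog2, with a GC content of 55.9%, was at 1.04, above the 90th percentile of its class, −0.75. Sox2 at 1.27 was also above that of its class, 0.63. The part of GC content in these gaps was not tested.

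**Figure D5:**
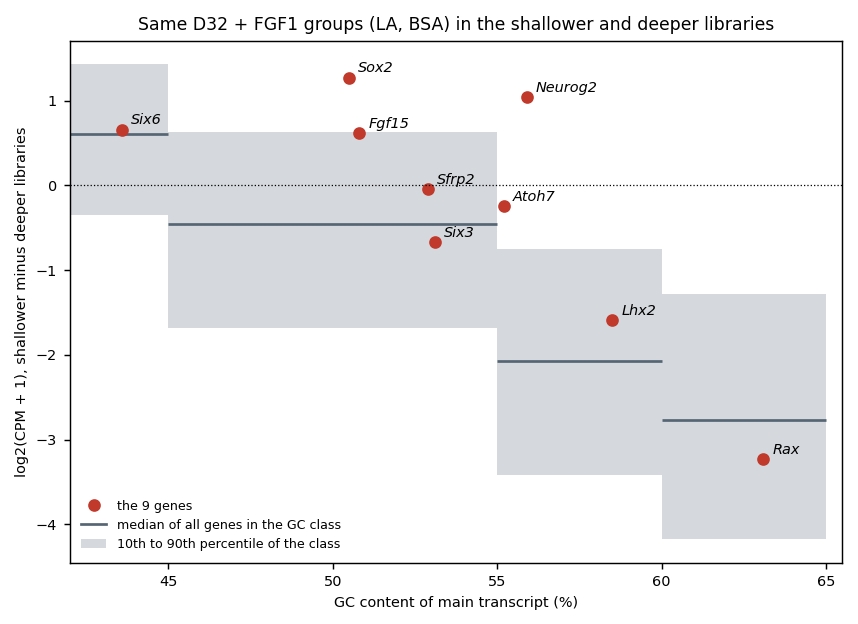
Shallower minus deeper difference of each gene in log2(CPM + 1) at day 32 with FGF1 in LA and BSA (vertical axis) against the GC content of its main transcript (horizontal axis; red circles), with the median and the range from 10th to 90th percentile of all genes in 4 GC classes (lines and grey areas; the outer classes extend beyond the axis). Rax at −3.23 is lowest, and Sox2 at 1.27 and Neurog2 at 1.04 are above the grey areas.

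The isoforms of Six3 and Lhx2 were also apportioned differently at the 2 depths. The 3680-base Six3 transcript took 51.7% ± 3.9 of Six3 transcript counts at day 32 with FGF1 and 50.5% ± 2.0 at day 26 in the deeper libraries (SD, n = 6 each), and 24.4% ± 6.0 (SD, n = 9) at day 32 without FGF1 in the shallower ones. The main Lhx2 transcript of 2840 bases took 68.8% ± 6.3 and 62.8% ± 4.6 in the 2 deeper groups and 94.8% ± 3.1 in the shallower libraries without FGF1. In the 2 shallower libraries with FGF1, the Six3 transcript took 17.8% and 25.2%, against 46.8% to 56.2% in the deeper libraries with FGF1. There the Lhx2 transcript took 92.4% and 95.9%, against 61.5% to 77.0%. The ranges of the 2 deeper groups overlapped for both transcripts, and no test was run on the shares.

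The fatty acids were compared in 3 settings, at day 32 with FGF1, at day 32 without FGF1 and at day 26, each fatty acid being set against the other and against BSA. DHA is an omega-3 and LA an omega-6 polyunsaturated fatty acid, and BSA was the carrier of both. None of the 9 genes passed the test in any of the 9 comparisons. In the cultures of day 32 with FGF1, 0.00994% of all genes passed between DHA and LA, 0% between DHA and BSA and 0.0149% between LA and BSA, and 0% passed in each of the other 6 comparisons. The genes at an unadjusted p under 0.05 numbered 1530, 546 and 692 in these 3 comparisons at day 32 with FGF1, 422, 315 and 276 without FGF1 and 638, 252 and 356 at day 26. DESeq2 called 149, 0 and 43 genes with FGF1, 2, 0 and 1 without FGF1, and none at day 26, and limma voom called 2, 0 and 2 with FGF1 and none elsewhere.

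For DHA against LA at day 26 the log2 differences of the 9 genes lay between −0.25 (Sfrp2) and 0.44 (Neurog2). The 95% interval was narrowest for Lhx2, from −0.21 to 0.60, and wide for Neurog2, from −0.42 to 1.298. At day 32 without FGF1 the 8 tested genes lay between −0.71 (Fgf15) and 0.35 (Rax). The median half-width of these intervals over all genes was 0.60 at day 26 and 0.95 at day 32 without FGF1, so the data do not show that the fatty acids act alike on them.

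The largest log2 difference of a member between fatty acids was that of Fgf15 at day 32 with FGF1. Fgf15 had 0.33 and 2.60 CPM in DHA, 5.03 and 3.87 CPM in LA, and 3.00 and 0.53 CPM in BSA, so that both DHA libraries were below both LA libraries while the BSA libraries spanned a similar range to DHA. The log2 difference was −1.65 for DHA against LA, with a 95% interval from −3.32 to 0.03 and an edgeR adjusted p of 0.669, and 1.38 for LA against BSA, with an interval from −0.24 to 2.99. Without the filter on low counts the adjusted p for DHA against LA was 1.49e-04, over a range of 1.49e-04 to 1 across all alternatives, and the difference was −0.77 without DHA replicate 1 and −3.73 without DHA replicate 2. At day 32 without FGF1 the DHA libraries had 1.40, 1.096 and 2.82 CPM of Fgf15, the LA libraries 5.51, 1.49 and 1.69 CPM and the BSA libraries 6.17, 1.89 and 5.34 CPM, and DHA and LA overlapped there. Beside these values, the summed pigment epithelium level at day 32 with FGF1 was 18.9 and 27.5 CPM in DHA and 217 and 334 CPM in LA, and the summed mesenchyme level was 42.3 and 79.8 CPM in DHA and 153 and 513 CPM in LA. Their part in the Fgf15 values was not tested.

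The genes whose log2 profiles over the 23 libraries were closest to each member were found among 12672 genes, after each profile was centred within the deeper and within the shallower libraries, by the root mean square difference. For Neurog2 they were Sox11, a transcription factor of immature neurons (0.22 on the log2 scale, against 0.65 for Neurog2's own spread), and Ube2t. For Sfrp2 they were the mitotic kinesin genes Kif2c and Kif4 (0.39 and 0.40, against 0.65). For Six6 they were Hnrnpab and H2afz, for Six3 Zbtb14 and Afdn, for Lhx2 Ldlrad3 and Zfp217, for Sox2 Tmem47 and Rnf138, and for Rax Bcl7a and Rcor2, at 0.16 to 0.30. The closest genes to Fgf15, Gngt2 and Rbp4, differed from it by 0.90 and 0.91, against its own spread of 1.63, and Atoh7 was not ranked because it was tested only in the deeper libraries.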

How the data were processed

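The deposited gene and transcript tables hold estimated counts, which the authors obtained with kallisto 0.45.0 after read trimming with Trimmomatic 0.36, with GRCm38.p6 and edgeR also named, per the submitters' processing notes; the strand setting and the step to gene level are not given in the sources used here. A deposited signal table holds the authors' normalized CPM for 18 of the 23 libraries, with gene symbols, and the method of that normalization is not given in the sources used here. Gene values were rounded to whole numbers and fitted with edgeR 4.0.16 in R 4.3.3 (quasi-likelihood test, TMM scaling, filterByExpr, 1 mean per group), separately in the 12 deeper and the 11 shallower libraries, with Benjamini-Hochberg adjustment over all genes tested and a threshold of 0.05. Levels are TMM-scaled CPM. The test was also run on simulated counts. Alternatives were DESeq2 1.42.0, limma 3.58.1 (voom, or the authors' values with a pseudocount of 1), another scaling, no filter, a replicate block, leaving out libraries and, chosen after seeing the data, sums of transcript counts.

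The 9 genes and the gene lists were chosen with earlier results of these data known. All 9 were named throughout, with the genes of smallest p from each other list (up to 3) and, for each member, the 2 genes closest in profile; the vector genes were added from the labels after their values were seen. 1 gene that this rule names is not reported here. The 2 depth ranges were read from the library totals, and their cause is not given in the sources used here. Replicate numbers are shared across groups. Deviations of same-numbered samples correlated between −0.123 and 0.351 across genes in the deeper and between −0.337 and 0.593 in the shallower libraries. Among groups with 3 replicates, they exceeded 0.1 in all 3 pairs only between DHA and LA of day 32 without FGF1. Groups with 2 replicates give 1 value per pair of groups. At day 32 with FGF1 it was 0.351 for BSA with DHA, 0.232 for BSA with LA and 0.157 for DHA with LA. At day 26 it was −0.006, 0.221 and −0.123 for the same pairs.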

Additional observations from a re-analysis of the deposited data

How the results depend on the processing

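At day 32 with FGF1 against day 26, all 9 genes were lower under every alternative, and 174 of 180 values kept their call; the other 6 were all of Sox2. The fit of all 23 libraries with the library set marked in the groups, the shallower FGF1 libraries standing apart, called 2860 genes, against 5773. Leaving out 1 library at a time, which assumes that a lone sample varies like the other groups, gave 4326 to 5899 genes and 8 to 9 members. It gave 0 to 26 genes for DHA against LA, 0 to 1 for DHA against BSA and 0 to 27 for LA against BSA at day 32 with FGF1, 0 to 1 for the difference between the DHA and the LA decrease, and 0 elsewhere.

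Without the filter on low counts, the 3 fatty acid comparisons in the order above called 122, 59 and 128 genes at day 26 and 528, 99 and 367 at day 32 with FGF1, where Fgf15 was the 1 member called in the first and the last. That setting also called 332 genes, with 1 member, Fgf15, for the difference between decreases, 7 for FGF1, and 3 (DHA against LA) and 8 (DHA against BSA) without FGF1. DESeq2 called 149 genes for DHA against LA and 43 for LA against BSA at day 32 with FGF1, 67 for the difference, 16 for FGF1, and 2 and 1 for the same pairs without FGF1. For these pairs with FGF1, sums of transcripts gave 0 and 1, and the authors' values with limma 17 and 5. The fit of all 23 libraries with the set marked in the groups gave 0 and 0. For FGF1 that fit gave 2 genes, and without the set 9563 genes and 2 members, Rax at 1.92 and Lhx2 at 0.92. The cause of these shifts was not tested.

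With the replicate block, 20 genes were called for DHA against LA at day 32 with FGF1, 43 for FGF1 and 6045 for day 32 with FGF1 against day 26, where all 9 members kept their call; no member's call changed in any comparison. For FGF1 the block turned the direction of Sox2 (−0.04), Six6 (−0.02) and Sfrp2 (0.12), none of them called. In the deeper libraries of day 32 with FGF1, same-numbered samples also correlated between media, at 0.157 to 0.351. Whether same-numbered samples share more than a number is not given in the sources used here.

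Depth limits Atoh7, whose gene values were at most 61.1 counts in any library.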
